A study of Mus musculus with 24 samples.

Results

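The genes described here are 10 members of the NRF2 axis, the main transcriptional defence of cells against oxidants and electrophiles. They were taken by symbol from a table of 47643 Ensembl genes, and each symbol matched a single row. The set holds the factor NRF2 (Nfe2l2), its inhibitor Keap1, and 8 genes known as its targets, Nqo1, Srxn1, Txnrd1, Gclc, Gclm, Slc7a11, Hmox1 and G6pdx. Of the 10, 7 had enough reads to be tested and 3 (Slc7a11, Hmox1 and G6pdx) did not. Nqo1 and Srxn1 stand at the head of the set because they were lower under smoke in these same samples, so these 2 were chosen by the measured values of the contrast described here. Their difference between the groups is given as a description and not as a test result.

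The samples were plantaris muscles, a fast muscle of the calf, from wild type mice of the C57BL/6 strain. A control group of 11 samples came from mice in normal air, and 13 samples came from mice that had 16 weeks of exposure to tobacco smoke. No transgene or other treatment is named for either group, and the age and sex of the mice are not given in the sources used here. The labels do not say that each sample is a separate mouse, so p-values measure the spread between these samples. RNA was sequenced from the 3′ end, which gives reads per transcript rather than per length, so levels are given as CPM, counts as a share of the library total, with libraries scaled by TMM, and may be set side by side between genes with the reservation that 3′ ends are not captured equally well.

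As background, NRF2 is held in the cytoplasm by KEAP1, which hands it to a CUL3 ubiquitin ligase for destruction. Oxidants and electrophiles modify cysteines of KEAP1, NRF2 then accumulates, pairs with a small MAF protein and binds antioxidant response elements in the DNA of its targets. BACH1 competes for the same elements. Tobacco smoke carries both oxidants and quinones, and NRF2 targets are commonly used as a readout of such stress. In muscle, most RNA comes from the fibres, but blood, vessel, nerve and connective tissue cells contribute, and in a whole muscle fewer cells of a type and less RNA per cell cannot be told apart.

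The antioxidant response element is the sequence link between NRF2 and these genes, so the stretch just upstream of the start was read for the members. RefSeq promoter sequences (build GRCm38.p6) matched 8 of the 10 members by symbol, with 10 start sites in all; Gclc and Hmox1 had no entry. The core was searched on both strands as TGACNNNGC and as TGAGNNNGC in the 250 bases before each start. Of 32851 promoter windows of that length, 10.2% held the first form, 14.4% the second and 23.0% at least 1 of them. The windows of the pair that was lower under smoke are shown first, then those of Gclm and of the second start of Txnrd1, which did not pass the test between the groups. Capitals mark matches to either form, read 5′ to 3′ along the strand of the gene.
Srxn1: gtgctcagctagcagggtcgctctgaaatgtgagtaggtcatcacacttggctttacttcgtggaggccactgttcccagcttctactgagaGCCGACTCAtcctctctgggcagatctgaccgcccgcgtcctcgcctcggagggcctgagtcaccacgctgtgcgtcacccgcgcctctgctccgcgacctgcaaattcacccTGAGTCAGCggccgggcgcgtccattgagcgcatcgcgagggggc
Nqo1: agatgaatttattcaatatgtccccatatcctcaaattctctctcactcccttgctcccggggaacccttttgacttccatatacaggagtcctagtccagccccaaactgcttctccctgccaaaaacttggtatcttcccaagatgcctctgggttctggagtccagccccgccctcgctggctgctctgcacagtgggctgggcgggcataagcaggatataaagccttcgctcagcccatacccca
Gclm: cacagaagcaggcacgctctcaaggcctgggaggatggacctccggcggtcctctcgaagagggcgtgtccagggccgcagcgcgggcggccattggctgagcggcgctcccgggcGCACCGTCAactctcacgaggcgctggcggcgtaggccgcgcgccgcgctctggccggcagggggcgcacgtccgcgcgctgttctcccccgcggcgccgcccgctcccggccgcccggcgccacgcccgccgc
Txnrd1: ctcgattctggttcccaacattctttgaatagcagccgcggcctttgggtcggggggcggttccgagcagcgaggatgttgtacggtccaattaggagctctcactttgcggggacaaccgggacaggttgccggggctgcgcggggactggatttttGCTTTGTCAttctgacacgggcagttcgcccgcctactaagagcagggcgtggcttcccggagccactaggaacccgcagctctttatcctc
The Srxn1 window (chr2:152105274-152105523 on the plus strand) held 2 matches. The nearer one, TGAGTCAGC, began 45 bases before the start, and the farther one read TGAGTCGGC on the opposite strand. The nearer match also contains TGAGTCA, the letters of an AP-1 site, which 4.46% of all windows hold and which stand a second time in this window, 102 bases before the start. The Nqo1 window (chr8:107403206-107403455 on the minus strand) held no match to either form, which says only that these letters are not in this window. The Gclm window (chr3:122245307-122245556 on the plus strand) read TGACGGTGC on the opposite strand, and that of Txnrd1 (chr10:82858956-82859205 on the plus strand) read TGACAAAGC, also on the opposite strand, while the other two Txnrd1 windows held no match to either form. The promoters of Nfe2l2 and G6pdx each held 1 match of the first form and that of Slc7a11 1 of the second, whereas the Keap1 window held none. The core of the element bound by the aryl hydrocarbon receptor (AhR), GCGTG, stands in 28.2% of all windows; it was found in 1 place in the Srxn1 window, in 3 in the Gclm window, in 1 in each of the 3 Txnrd1 windows, in 1 each in those of Keap1 and G6pdx, and in none in those of Nqo1, Nfe2l2 and Slc7a11. A match is a string of letters and not a measured binding site.

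Library totals ranged from 2868808 to 4060568 counts in air and from 2515697 to 4528845 in smoke, and a floor of 3 counts was worth 0.665 to 1.15 CPM. Of 10159 genes tested by edgeR's quasi-likelihood test, 195 (1.92%) differed at a Benjamini-Hochberg adjusted p under 0.05, 121 of them lower in smoke (1.19%) and 74 higher (0.728%). All 8 skeletal muscle markers were abundant, with Acta1, the actin of skeletal fibres, at 52109 ± 6642 CPM (SD, n = 11) in air. None of the 8 was called. Their log2 fold changes, smoke against air, ran from −0.27 for Myh2 (adjusted p = 0.0627 by edgeR) to 0.16 for Myh4 (adjusted p = 0.228). Blood markers were lower under smoke, 3 of 5 tested being called, with a summed level of 488 to 1445 CPM in air and 369 to 884 CPM in smoke. Schwann cell markers, which mark nerve, were higher, 5 of 7 tested being called, with sums of 123 to 287 CPM in air and 183 to 928 CPM in smoke. The smoke replicates 2, 10 and 12 stood apart in these Schwann markers, at 928, 653 and 682 CPM. None of the 6 tested macrophage, 8 endothelial, 6 fibroblast or 6 adipocyte markers was called (edgeR), and no defining marker of the blood or Schwann list was at 0 in all samples. The sample sheet numbers in the file headers place every smoke sample before every air sample, so that sheet position and group cannot be told apart.

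**Figure D1:**
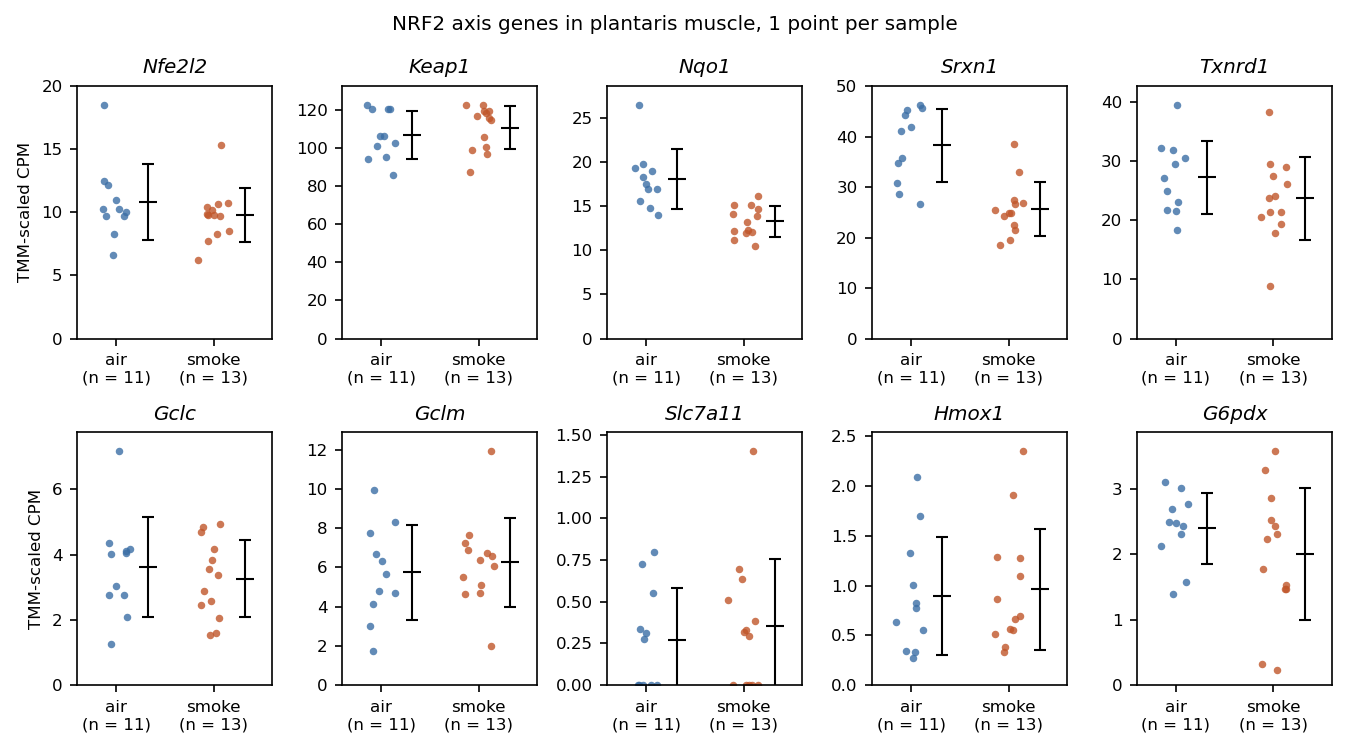
Levels of the 10 NRF2 axis genes (TMM-scaled CPM, linear axes from 0) in each air and smoke sample, 1 point per sample, with the mean and SD beside them. In Nqo1, 8 of 13 smoke samples lie below the lowest air sample, and in Srxn1 9 of 13 do, while in the other 8 genes at most 2 do.

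In air, Keap1 had the highest level of the set at 107 ± 12.7 CPM (SD, n = 11), and its range did not overlap that of the next gene. It was followed by Srxn1 at 38.3 ± 7.26, Txnrd1 at 27.3 ± 6.17, Nqo1 at 18.1 ± 3.36 and Nfe2l2 at 10.8 ± 3.03 CPM. From Srxn1 down, the ranges of neighbours in this order overlapped, although within a sample the order mostly held: Srxn1 exceeded Txnrd1 in 10 of 11 air samples and Txnrd1 exceeded Nqo1 in 11 of 11. The glutathione synthesis genes were low, with Gclm at 5.74 ± 2.41 and Gclc at 3.62 ± 1.54 CPM. G6pdx (2.40 ± 0.540), Hmox1 (0.895 ± 0.590) and Slc7a11 (0.273 ± 0.306 CPM) came last. In smoke the order of the means was the same, but Srxn1 exceeded Txnrd1 in only 7 of 13 samples, at 25.7 ± 5.35 against 23.7 ± 7.00 CPM (SD, n = 13).

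The regulators of the axis did not pass the test between the groups. Nfe2l2 encodes NRF2 itself (chr2:75675513-75704641 on the minus strand of GRCm38, overlapping Gm24996 on the same strand). Its level in air was 6.61 at the lowest, 10.2 at the median and 18.5 CPM at the highest sample, and in smoke 6.22, 9.82 and 15.3 CPM. The ranges cover each other almost entirely. The log2 fold change, smoke against air, was −0.15 (SE 0.14, adjusted p = 0.669 by edgeR). With 1 sample left out it ran from −0.22 (without smoke replicate 4) to −0.040 (without air replicate 5, the highest in air), and it was −0.0065 with the Schwann score as a covariate. Keap1, the sensor that targets NRF2 for breakdown (chr9:21229730-21239361, minus strand), lay at 85.8, 106 and 123 CPM in air and at 87.6, 116 and 123 CPM in smoke. Its log2 fold change was 0.053 (SE 0.066, adjusted p = 0.763 by edgeR), from 0.024 without air replicate 1 to 0.077 without smoke replicate 5, and exons of Gm16754 overlap it on the opposite strand. NRF2 is controlled mainly through its stability, which messenger RNA levels do not measure.

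Nqo1 encodes a quinone reductase that turns quinones into hydroquinones without releasing radicals, and is a standard marker of NRF2 activity (chr8:107388225-107403206 on the minus strand, with no annotated overlap). The 11 air samples ran from 14.0 over a median of 17.5 to 26.5 CPM (45 to 79 counts), and the 13 smoke samples from 10.4 over 13.2 to 16.2 CPM (31 to 61 counts). All 13 smoke samples were under the mean of air, 8 were below the lowest air sample, and 8 of 11 air samples were above the highest smoke sample. The remaining samples of both groups lay in the shared range of 14.0 to 16.2 CPM. No member had groups that did not overlap at all, against 0.0295% of tested genes (3 of 10159). The smoke mean of 13.3 ± 1.73 CPM was 73.4% of the air mean, a log2 fold change of −0.44 (SE 0.10). In smoke the spread of Nqo1 was no wider than counting error alone would give, its variance being 0.756 times the counting variance, whereas in air it was 2.15 times.

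Srxn1 encodes sulfiredoxin, which repairs over-oxidised peroxiredoxins at the expense of ATP (chr2:152105516-152111376 on the plus strand, with no annotated overlap). Air samples ran from 26.8 over a median of 41.1 to 46.4 CPM (77 to 168 counts) and smoke samples from 18.5 over 24.9 to 38.5 CPM (51 to 131 counts). Of the 13 smoke samples, 12 were under the mean of air and 9 below the lowest air sample, and smoke replicate 11, at 38.5 CPM, was the exception. The smoke mean was 67.1% of the air mean, a log2 fold change of −0.57 (SE 0.11). The spread exceeded counting error in both groups, at 4.74 times the counting variance in air and 3.77 times in smoke.

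Nqo1 and Srxn1 were the only 2 of the 7 tested members called over all genes, and both were lower. The share of all tested genes called lower was 1.19%, and nothing is read from the members' count, since this contrast chose them. Besides the blood and Schwann markers, clock genes differed between the groups. Called were 3 of 6 tested of those listed as higher and 1 of 4 of those listed as lower. The clock genes were listed by direction, with earlier results of these data known, so nothing is read from their counts. With scores of these markers and clock genes as covariates, the log2 fold change of Nqo1 was −0.48 (SE 0.12) for the blood score, −0.42 (SE 0.12) for the Schwann score and −0.44 (SE 0.17) for an index of clock genes. That of Srxn1 was −0.65 (SE 0.13), −0.54 (SE 0.13) and −0.50 (SE 0.17). The call of Nqo1 ended with each of these covariates and that of Srxn1 with the clock index. The clock index ran from 0.917 to 2.01 in air and from 1.36 to 2.91 in smoke, with 2 of 13 smoke samples inside the range of air. It had an r of 0.79 with the group, so index and group are hard to separate in a fit. Nothing is therefore read from the end of the calls with that index. Beyond these fits, the part of other cell types or of the clock genes in the result was not tested. Without the 3 smoke samples that stood apart in Schwann markers, the values were −0.43 for Nqo1 and −0.55 for Srxn1.

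**Figure D2:**
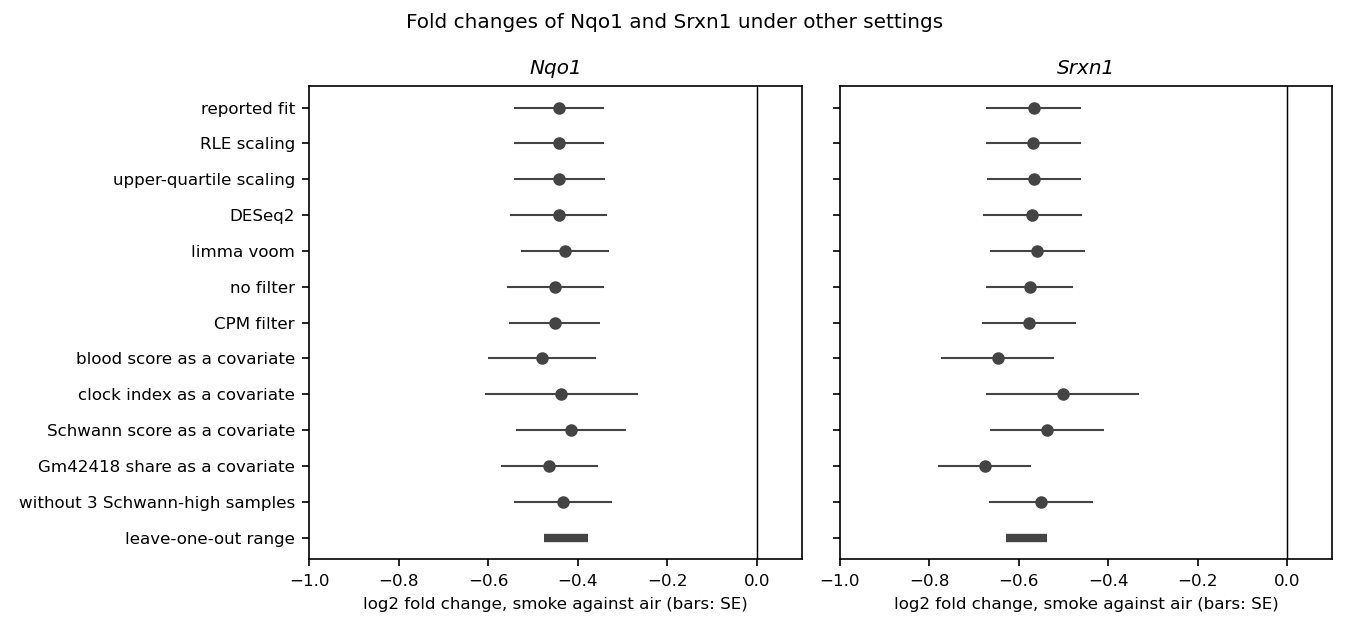
Log2 fold changes of Nqo1 (left) and Srxn1 (right), smoke against air, with standard errors, in the reported fit and under other scalings, tools, filters and covariates; the thick bar spans the fits that leave out 1 sample each. The points of Nqo1 lie from −0.48 to −0.42 and those of Srxn1 from −0.68 to −0.50, and the bar under the clock index is the widest in both panels.

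Txnrd1, the cytosolic thioredoxin reductase that keeps thioredoxin reduced with NADPH (chr10:82833951-82897712, plus strand, overlapping Eid3 on the same strand), ran from 18.3 over 27.2 to 39.6 CPM in air and from 8.93 over 23.7 to 38.4 CPM in smoke. The lowest smoke value belonged to replicate 2, the sample with the highest Schwann marker level. The log2 fold change was −0.20 (SE 0.14, adjusted p = 0.525 by edgeR), −0.13 without that sample and −0.092 without the 3 samples high in Schwann markers, and it turned positive with the Schwann score or the clock index as a covariate, at 0.070 and 0.17. With the blood score it was −0.33, and with the share of counts on Gm42418 (9.62 to 16.1% in air, 11.3 to 17.8% in smoke) −0.060.

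The genes that supply glutathione, the main small antioxidant of the cell, showed no difference that passed the test. Gclc, the catalytic subunit of the rate-limiting glutamate-cysteine ligase (chr9:77754535-77794485, plus strand), ran from 1.26 over 4.03 to 7.17 CPM in air and from 1.54 over 3.37 to 4.95 CPM in smoke. Its log2 fold change was −0.15 (SE 0.22, adjusted p = 0.814 by edgeR), −0.00020 without air replicate 10 and −0.24 without air replicate 11. Gclm, the modifier subunit of the same enzyme (chr3:122245557-122270732, plus strand), ran from 1.74 over 5.67 to 9.96 CPM in air and from 1.96 over 6.37 to 11.9 CPM in smoke, with a log2 fold change of 0.090 (SE 0.21, adjusted p = 0.894 by edgeR) that ran from −0.0072 to 0.20 when 1 sample was left out. Exons of Gm6061 overlap Gclm on the same strand and those of Gm17494 on the opposite one. With 4 to 27 counts of Gclc and 5 to 37 counts of Gclm per sample, the standard errors of these subunits exceeded those of Nqo1 and Srxn1 (0.10 and 0.11), and smaller changes were not detectable at this depth. Slc7a11, the cystine importer, had 11 counts over all air samples and 16 over all smoke samples, with 0 counts in 5 samples of each group and at most 0.797 and 1.40 CPM.

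Hmox1, the inducible haem oxygenase that is switched on strongly by NRF2 and by the loss of BACH1, had 35 counts over the 11 air samples and 42 over the 13 smoke samples. It ran from 0.269 over 0.772 to 2.09 CPM in air and from 0.330 over 0.695 to 2.35 CPM in smoke, so that most samples were at or under the floor of 3 counts. G6pdx, which feeds the pentose phosphate pathway and its NADPH, ran from 1.39 over 2.47 to 3.11 CPM in air and from 0.232 over 2.23 to 3.58 CPM in smoke, with 93 and 89 counts in all. Exons of Ikbkg overlap G6pdx on the opposite strand. When every gene with a read was fitted, the log2 fold changes were 0.064 for Hmox1 (SE 0.41, adjusted p = 0.960 by edgeR), −0.27 for G6pdx (SE 0.29, adjusted p = 0.677) and 0.30 for Slc7a11 (SE 0.60, adjusted p = 0.861). At this depth only large differences would have been detectable in these genes.

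Of the 5 tested members besides Nqo1 and Srxn1, 3 had a negative log2 fold change (Nfe2l2, Gclc and Txnrd1), against 48.4% of all 10159 genes, and with the Schwann score 1 of these 3 stayed below 0. The median over the 7, which include the pair picked on this contrast, was −0.15 against 0.0066 over all genes, and nothing is read from it.

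Of 50 further genes listed by role in the pathway, 38 were tested and none was called in either direction by edgeR, against 1.92% of all genes. At an unadjusted p under 0.05 there were 7, 5 of them lower and 2 higher, against 15.5% of all genes, a share near theirs. DESeq2 called 3 (Cat, Mafg and Osgin1, each lower), against 3.31% of all genes with an adjusted p in DESeq2, and limma voom 0, against 1.72%. In edgeR 1 (Osgin1) was called with no filter, against 0.727% of all genes, 1 (Osgin1) with a CPM filter, against 1.52%, and 1 (Cat) with the replicate number as a block, against 1.37%. Exons of other genes overlap those of Sqstm1, Me1 and Ftl1, which makes their counts uncertain. Of the 38, 16 (42.1%) had a negative log2 fold change, and the median was 0.010.

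Among 14 regulators, 11 were tested. Nfe2l1, an NRF2 relative that controls proteasome genes, averaged 649 ± 109.98 CPM (SD, n = 11) in air against 672 ± 77.3 CPM (SD, n = 13) in smoke, and Sqstm1, a KEAP1-binding autophagy receptor, at 284 ± 29.6 and 270.02 ± 25.7 CPM. Their log2 fold changes were 0.049 and −0.070 (edgeR adjusted p = 0.832 and 0.629). Mafg, a small MAF partner of NRF2 named here after its values were seen, was under the mean of air in 13 of 13 smoke samples, at −0.23 (SE 0.067, adjusted p = 0.0632 by edgeR), and its exons overlap those of Sirt7 on the same strand.

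Of 16 glutathione enzymes and transporters, 9 were tested. The most abundant were Gstm1, a glutathione transferase, with −0.088 in log2 fold change (SE 0.085, adjusted p = 0.686 by edgeR), and Mgst1, a microsomal transferase, at 0.035 (SE 0.10, adjusted p = 0.917). Gsta2 and Gstm3 had no read in any sample. The peroxiredoxins Prdx1, reduced by thioredoxin, and Prdx6, reduced through glutathione, stood at −0.030 (SE 0.063, adjusted p = 0.876 by edgeR) and −0.095 (SE 0.044, adjusted p = 0.285). Peroxiredoxins of the type represented by Prdx1 are what sulfiredoxin repairs, and Prdx1 averaged 334 ± 26.5 CPM in air against 327 ± 42.9 CPM in smoke.

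The 5 NADPH-producing enzymes were all tested. Me1, the malic enzyme, had a log2 fold change of −0.017 (SE 0.051, adjusted p = 0.922 by edgeR) and Taldo1, of the pentose phosphate pathway, −0.038 (SE 0.074, adjusted p = 0.867). The ferritin chains Fth1 and Ftl1, which store the iron that haem breakdown releases, stood at 0.0069 (SE 0.042, adjusted p = 0.963 by edgeR) and −0.040 (SE 0.082, adjusted p = 0.875). With Fth1 at 1651 ± 83.6 CPM in air, its standard error was the smallest of the 38. Of 7 detoxification enzymes, 5 were tested, led by the aldehyde dehydrogenase Aldh1a1 at 0.0041 (SE 0.073, adjusted p = 0.988 by edgeR) and the aldehyde oxidase Aox1 at 0.25 (SE 0.10, adjusted p = 0.195).

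The last pair of listed targets lay just outside the threshold, as Mafg did. Osgin1, an oxidative stress growth inhibitor, averaged 10.3 ± 3.16 CPM (SD, n = 11) in air against 6.75 ± 2.41 CPM (SD, n = 13) in smoke, which is −0.62 in log2 fold change (SE 0.17, adjusted p = 0.0511 by edgeR) with 12 of 13 smoke samples under the mean of air. Cat, the hydrogen peroxide-degrading catalase, was at 120.02 ± 14.4 and 101 ± 14.9 CPM, at −0.25 (SE 0.074, adjusted p = 0.0679 by edgeR), also in 12 of 13. Neither has an annotated overlap. Osgin1 was called in the fits without air replicate 1, 2, 8 or 9 or smoke replicate 4 or 8, Cat in those without air replicate 2 or smoke replicate 13, and Mafg in those without air replicate 6, 7 or 11 or smoke replicate 11.

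**Figure D3:**
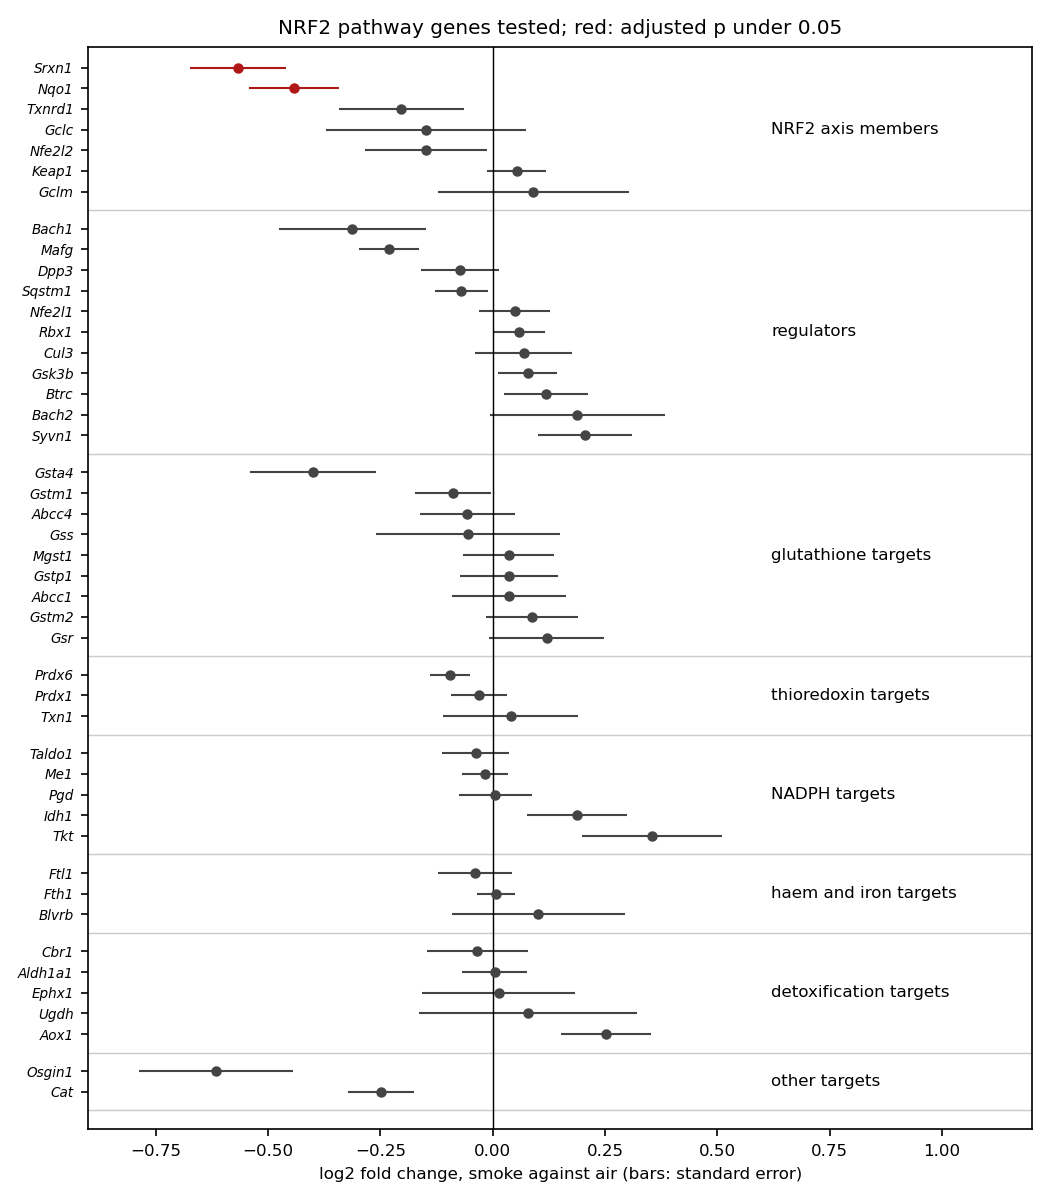
Log2 fold changes, smoke against air, of the 45 tested genes of the pathway by role, with standard errors; red marks an adjusted p under 0.05. Srxn1 and Nqo1, the pair picked on this contrast, are the red points at −0.57 and −0.44, Osgin1 lies at −0.62 with a wider bar, and the remaining genes scatter on either side of 0.

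Nqo1 is also a known target of AhR, the receptor named in the title of the study. Of 6 listed AhR targets besides it, only Tiparp passed the filter on low counts, with 5.97 ± 1.42 CPM in air against 8.38 ± 2.37 CPM under smoke, or 0.48 in log2 fold change (SE 0.16, adjusted p = 0.114 by edgeR). Exons of another gene on the opposite strand overlap Tiparp.

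Variation among samples of one group does not use the difference between the groups, and it was examined for 6 relations by two-sided permutation tests with 100000 resamples. Nqo1 and Srxn1, the pair lower under smoke, showed no detectable relation within groups. In air (n = 11), Pearson's r was 0.12 (permutation p = 0.733, adjusted p = 0.814, 95% interval −0.52 to 0.67) and Spearman's rho 0.018 (permutation p = 0.967, adjusted p = 0.967). In smoke (n = 13), r was 0.073 (permutation p = 0.814, adjusted p = 0.814, interval −0.50 to 0.60) and rho 0.038 (permutation p = 0.909, adjusted p = 0.967). When the 2 samples most distant from the Nqo1 median were left out, r was −0.30 in air and 0.20 in smoke. The intervals are wide, and Nqo1 in smoke was spread no wider than its counting error, so these values cannot decide whether a relation exists there.

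**Figure D4:**
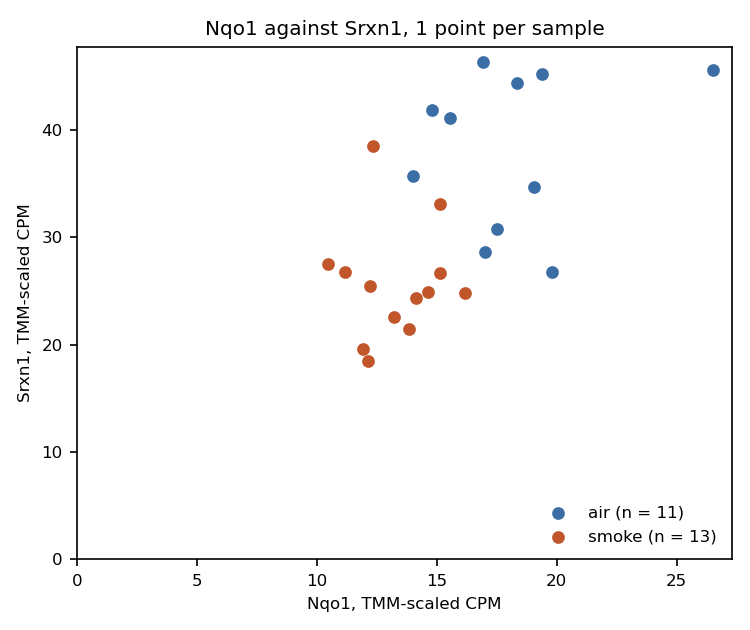
Nqo1 (horizontal) against Srxn1 (vertical) in TMM-scaled CPM, 1 point per sample, air in blue and smoke in orange. The smoke samples mostly lie lower and to the left of the air samples, and no relation was detected within either colour, with r of 0.12 in air and 0.073 in smoke.

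No relation of either with the transcript of NRF2 was detected. Nfe2l2 with Nqo1 gave r of 0.31 in air (permutation p = 0.334, adjusted p = 0.669, rho 0.35, permutation p = 0.285, adjusted p = 0.571) and −0.35 in smoke (permutation p = 0.246, adjusted p = 0.669, rho −0.43, permutation p = 0.148, adjusted p = 0.443). Without 2 samples these were 0.091 and −0.20. Nfe2l2 with Srxn1 gave −0.26 in air (permutation p = 0.455, adjusted p = 0.682, rho −0.11, permutation p = 0.753, adjusted p = 0.967) and −0.41 in smoke (permutation p = 0.165, adjusted p = 0.669, rho −0.43, permutation p = 0.141, adjusted p = 0.443). Without 2 samples these were −0.18 and −0.29. None of the 6 relations passed the adjustment. The limit from counting error in Nqo1 in smoke holds for its relation with Nfe2l2 too.

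Over all 24 samples, after each group's mean was subtracted from log2 CPM, r among the 21 pairs of the 7 tested members ran from −0.33 (Nfe2l2 with Srxn1) to 0.40 (Gclc with Txnrd1), with a median of 0.072. It was above 0 in 14 pairs, and in 6 of them above 0 in each group taken alone. These are descriptions across samples that share library scaling and, for the low genes, much counting noise. The genes most like Nqo1 by this measure were Gm10138 (r 0.68), Coq8a (0.67), a kinase-like protein of coenzyme Q synthesis, Myl3 (0.60), the slow myosin light chain, Dusp26 (0.60) and Zscan20 (0.59). Those most like Srxn1 were Myo9a (0.69), Zzz3 (0.69), Spopl (0.67), Gm37457 (0.67) and Pelo (0.65). Exons of other genes on the opposite strand overlap Gm10138, Coq8a, Myl3, Myo9a, Zzz3, Spopl and Pelo. On its own strand, Pelo also overlaps Itga1 and exons of Gm49395. No other member of the axis was among these 10, and 95% of all tested genes had r below 0.31 with Nqo1 and below 0.37 with Srxn1. The 10 were picked as the largest r in a search over all tested genes with a symbol. Nothing is therefore read from how far they lie above those values. The list of Nqo1 is further limited because its spread in smoke was no wider than counting error. Of the 10, Dusp26 alone was called between the groups, and it was higher in smoke, at 0.33 (SE 0.074, adjusted p = 0.0125 by edgeR), where Nqo1 was lower; its r with Nqo1 was 0.82 in air and 0.11 in smoke. Likewise r of Myo9a with Srxn1 was 0.41 in air and 0.89 in smoke.

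Within groups, Nqo1 and Srxn1 were also set against the blood score, the Schwann score and the clock index, 12 relations chosen after the values were seen. Pearson's r ran from −0.38 to 0.45 and Spearman's rho from −0.38 to 0.49, and 0 of 12 passed an unadjusted permutation p of 0.05 (adjusted p from 0.922 to 0.948 for r and from 0.640 to 0.891 for rho). When the 2 samples most distant from the median score were left out, r of Srxn1 with the clock index moved from −0.097 to 0.62 in smoke and from 0.11 to 0.53 in air, so that these values depend on those samples.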

How the data were processed

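The authors deposited 1 table of raw counts of reads per Ensembl gene, 24 columns, 1 per sample, whose names matched the sample titles. Per the labels' protocols, libraries were Lexogen QuantSeq 3′ forward. The submitters' processing notes list STAR, DESeq2 and the build mm9. Annotation, counting tool, strand use and duplicate handling are not given in the sources used here, so overlapping genes are uncertain. Symbols came from GENCODE M21 (GRCm38), which held 47224 of 47643 IDs. Its coordinates, and those of the RefSeq promoters, are on GRCm38 and not on mm9.

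Counts were fitted with edgeR 4.0.16 (R 4.3.3): filterByExpr with a minimum count of 10, TMM scaling, glmQLFit and glmQLFTest on 24 samples without covariates, Benjamini-Hochberg adjustment over 10159 genes. Standard errors are the log2 fold change divided by the root of F. Alternatives were RLE and upper-quartile scaling, DESeq2 1.42.0, voom (limma 3.58.1), 2 other filters, the replicate number as a block, covariates (blood and Schwann scores, clock index, share of Gm42418 in the counts), leaving out each sample and, added later, leaving out 3 samples high in Schwann markers. The floor of 3 counts covers counting error only. On simulated counts for smoke against air over 10159 genes, 95% of 2-fold and 76% of 1.5-fold changes were recovered. Of 184 genes called there, 171 had been changed. The genes were simulated independently, and these shares cover genes of all depths, so they do not describe the low members.

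Log2 CPM used a prior count of 2. The marker scores are means of log2 CPM over a list, and the clock index is that of Dbp, Per2, Per3, Nr1d1, Nr1d2 and Tef minus that of Arntl, Npas2, Clock, Nfil3 and Cry1. Counting variance is the mean count's Poisson variance in CPM. No 2 samples of a group agreed within sampling noise (chi-square per gene from 2.52 to 18.5 over 133 pairs). Members, gene lists, scores and alternatives were chosen with earlier results of these data known. Named in the text are all members, any called pathway gene, the 2 most abundant tested per role and the 5 genes most correlated with Nqo1 and with Srxn1; Mafg, Tiparp, Acta1 and genes at 0 counts were named besides.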

Additional observations from a re-analysis of the deposited data

How the results depend on the processing

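Against 195 genes called (74 higher, 121 lower), DESeq2 gave 323 (121 and 202), an adjusted p under 0.10 gave 413 (169 of them higher), and covariates gave 56 (18 and 38) for the blood score, 79 (23 and 56) for the Schwann score and 2 (0 and 2) for the clock index; the cause was not tested, and the covariates differ between the groups. Members called fell from 2 to 1 with the blood or Schwann score (Srxn1 remained) and to 0 with the clock index (2 members at an unadjusted p under 0.05); these counts describe the pair picked on this contrast and support nothing. Pathway genes called rose from 0 to 3 with DESeq2, against 3.31% of all genes with an adjusted p there. They also rose to 3 at an adjusted p under 0.10, where 413 of all 10159 genes were called. With no filter (0.727% of all genes) or a CPM filter (1.52%) the count was 1. Reversed were Keap1 (−0.065) and Txnrd1 (0.17) with the clock index, and Gclc (0.040) and Txnrd1 (0.070) with the Schwann score, none of them called. Of 84 member values under 12 alternatives, 75 kept direction and side of the threshold. Leaving out each sample in turn gave 0 to 2 pathway genes and 141 to 254 genes, with the count of members at 2, which the choice of the pair largely fixes; Gclm ranged from −0.0072 to 0.20, r of Nqo1 with Srxn1 from −0.20 to 0.29 in air and from −0.069 to 0.22 in smoke, r of Nfe2l2 with Nqo1 from 0.13 to 0.60 and from −0.41 to −0.26, and r of Nfe2l2 with Srxn1 from −0.34 to −0.19 and from −0.53 to −0.13.

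Replicate numbers stand in both groups but do not pair the samples: deviations from group means correlated at −0.0059 on average over 11 same-numbered pairs, against 0.0011 over 132 others. With the replicate number as a block (22 samples), 139 genes, 1 member (Srxn1, of the pair picked on this contrast) and 1 pathway gene (Cat) were called, against 1.37% of all genes. Nqo1 was not called in that fit, at a log2 fold change of −0.46 (SE 0.12).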
